A study of Homo sapiens with 8 samples.

Results

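The Wnt and R-spondin signalling genes described here are 38 named genes, all 38 of which were found in the deposited table of 57905 Ensembl genes. They were chosen as a list by function, as follows: 1 ligand (WNT5A), 2 genes of Wnt secretion, 8 Frizzled receptors, 2 LRP co-receptors, 3 R-spondin receptors, 2 receptor E3 ligases, 3 Dishevelled genes, 5 genes of the destruction complex, beta-catenin (CTNNB1), 4 TCF/LEF transcription factors, 4 beta-catenin co-factors and 3 antagonists. Their transcripts were measured by RNA sequencing in 8 libraries from 2 prostate cancer lines. The EnzaR line resists enzalutamide, a hormone-therapy drug for prostate cancer, and was kept in 10 uM of it. It received siRNA at 40 nM for 48 h, either a control (siNC) or one directed at YAP1 (siYAP1), with 2 libraries per group. LNCaP cells are enzalutamide-sensitive, were grown without the drug and had 1 library per group: a vehicle control (control), or cells given for 48 h extracellular vesicles (EVs) from EnzaR cells treated with control siRNA (EV-siNC), depleted of YAP1 (EV-siYAP1) or depleted of COUP-TFII (EV-siCII). YAP1 is the transcriptional co-activator that the Hippo kinases restrain, and COUP-TFII is a nuclear receptor whose gene is NR2F2. The EnzaR libraries therefore differ from the LNCaP libraries in line, drug and siRNA transfection at once, and these cannot be told apart. Whether the 2 libraries of a group came from separate cultures is not stated, and p-values cover no more than the spread between these libraries, possibly a technical one.

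Canonical Wnt signalling turns on the stability of beta-catenin. Without a ligand, a destruction complex built on Axin and APC lets the kinases CK1 alpha and GSK3 mark beta-catenin for degradation. When a Wnt protein bridges a Frizzled receptor and an LRP co-receptor, Dishevelled is recruited, the complex is blocked, and beta-catenin enters the nucleus and binds TCF/LEF factors together with BCL9 and Pygopus co-factors. The E3 ligases RNF43 and ZNRF3 remove Frizzled receptors from the cell surface, and R-spondins acting through LGR receptors hold these ligases back. In prostate cancer the pathway is studied for its part in resistance to hormone therapy.

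Of the 38 genes, 27 had an entry in the RefSeq promoter table (GRCh38.p14). The 250 bases upstream of the start are shown for LGR4 and PYGO2, which moved in opposite directions after YAP1 depletion, and for DKK1, a secreted LRP antagonist with almost no reads. Each reads 5′ to 3′ on the gene's strand, and capitals mark matches on either strand to CATTCC (the core bound by TEAD, the DNA-binding partner of YAP1), CTTTGA (the core bound by TCF/LEF) or TATAAA (a core promoter element).
LGR4 (chr11:27472791-27473040, minus strand): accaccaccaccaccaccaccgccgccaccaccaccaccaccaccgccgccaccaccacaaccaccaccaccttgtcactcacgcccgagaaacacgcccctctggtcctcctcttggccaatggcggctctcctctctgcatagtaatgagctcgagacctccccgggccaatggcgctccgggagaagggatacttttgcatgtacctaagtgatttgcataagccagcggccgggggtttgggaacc
PYGO2 (chr1:154961783-154962032, minus strand): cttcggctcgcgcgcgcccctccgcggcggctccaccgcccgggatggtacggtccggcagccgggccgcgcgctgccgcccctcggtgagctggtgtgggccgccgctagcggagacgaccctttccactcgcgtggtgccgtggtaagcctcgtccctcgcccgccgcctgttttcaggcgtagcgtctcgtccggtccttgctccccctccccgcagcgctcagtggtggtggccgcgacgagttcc
DKK1 (chr10:52314031-52314280, plus strand): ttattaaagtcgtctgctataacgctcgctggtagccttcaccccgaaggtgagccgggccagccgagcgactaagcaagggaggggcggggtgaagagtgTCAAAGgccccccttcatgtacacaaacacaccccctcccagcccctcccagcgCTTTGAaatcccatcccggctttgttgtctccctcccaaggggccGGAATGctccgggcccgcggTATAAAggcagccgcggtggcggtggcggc
The LGR4 and PYGO2 windows held none of these letters and had 62.0% and 74.4% G and C, against a median of 58.0% over all promoters. The DKK1 window held 1 TEAD core, 2 TCF/LEF cores and 1 TATAAA, and it was chosen for display after these matches were seen. No other member with an entry held either core. CATTCC occurred in 11.9%, CTTTGA in 11.4% and TATAAA in 11.1% of the 27305 upstream windows in the table. TATAAA was also found for FZD8, PYGO1 and TCF7. A match is a string of letters and not a measured site.

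The libraries held 16682669 to 18248939 counts each, so that 3 counts corresponded to 0.164 to 0.18 CPM (counts scaled to the library total). CPM values below are scaled by the trimmed mean of M values (TMM) over all 8 libraries and compare 1 gene between libraries, and FPKM, which divides by gene length, compares genes with one another. YAP1 itself had 59.5 and 49.2 CPM with siNC, 6.12 and 7.44 CPM with siYAP1, and 58.4 to 66.2 CPM in the LNCaP libraries, so the knockdown libraries were the low ones. NR2F2 was at 43.8 to 53.4 CPM in the 8 libraries, so that its depletion in the cells that gave the vesicles cannot be seen here. The luminal prostate marker KLK3 was present in every library, at 1158 to 1333 CPM in EnzaR and 40.7 to 47.3 CPM in LNCaP. VIM, a mesenchymal gene, was at 259 to 282 CPM in LNCaP and at 0 to 2.13 CPM in EnzaR libraries. LNCaP cells are known for abundant KLK3 and little VIM, so the libraries labelled LNCaP go against that profile. The labels were used as given, the identity of the line was not tested, and every EnzaR to LNCaP value below rests on it. Of 3 basal and 3 leukocyte markers, the summed levels stayed between 0.0547 and 0.525 CPM. The 4 fibroblast markers summed to 18.9 to 26.4 CPM in EnzaR and 102 to 119 CPM in LNCaP libraries, mostly COL1A1. COL3A1, DCN and LUM were at 3.43, 0.413 and 0.354 CPM in siYAP1 library 2 and at 0 in the other EnzaR libraries. The part of this in the results was not tested.

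Levels differed widely among the members. The highest FPKM among members was that of DVL1, a Dishevelled scaffold, at 99.05 to 106.88 FPKM in EnzaR and 83.31 to 87.06 FPKM in LNCaP. PYGO2, LRP5, DVL3 and CTNNB1 followed, with medians over the 8 libraries of 31.87, 29.28, 27.2 and 26.385 FPKM. The ranges of these 4 genes overlapped over the libraries, so their order is not firm. Among R-spondin receptors LGR4 was the one with a median over 1 FPKM (1.21 FPKM), whereas LGR5 had 0 to 4 counts and LGR6 0 to 17 counts in any library. DKK1 had 0 or 1 count per library, where a count of 0 allows up to 0.18 CPM, and SFRP1, another secreted antagonist, had 0 to 9. WNT5A, the ligand on the list and best known for non-canonical signalling, had 0.36 to 0.86 FPKM. Among ligands that are no members, WNT7B was at 41.8 to 64.7 CPM and WNT10B at 14.7 to 22.3 CPM over the 8 libraries, chosen here after their values were seen. The plot of all members by library shows these levels on 1 axis.

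**Figure D1:**
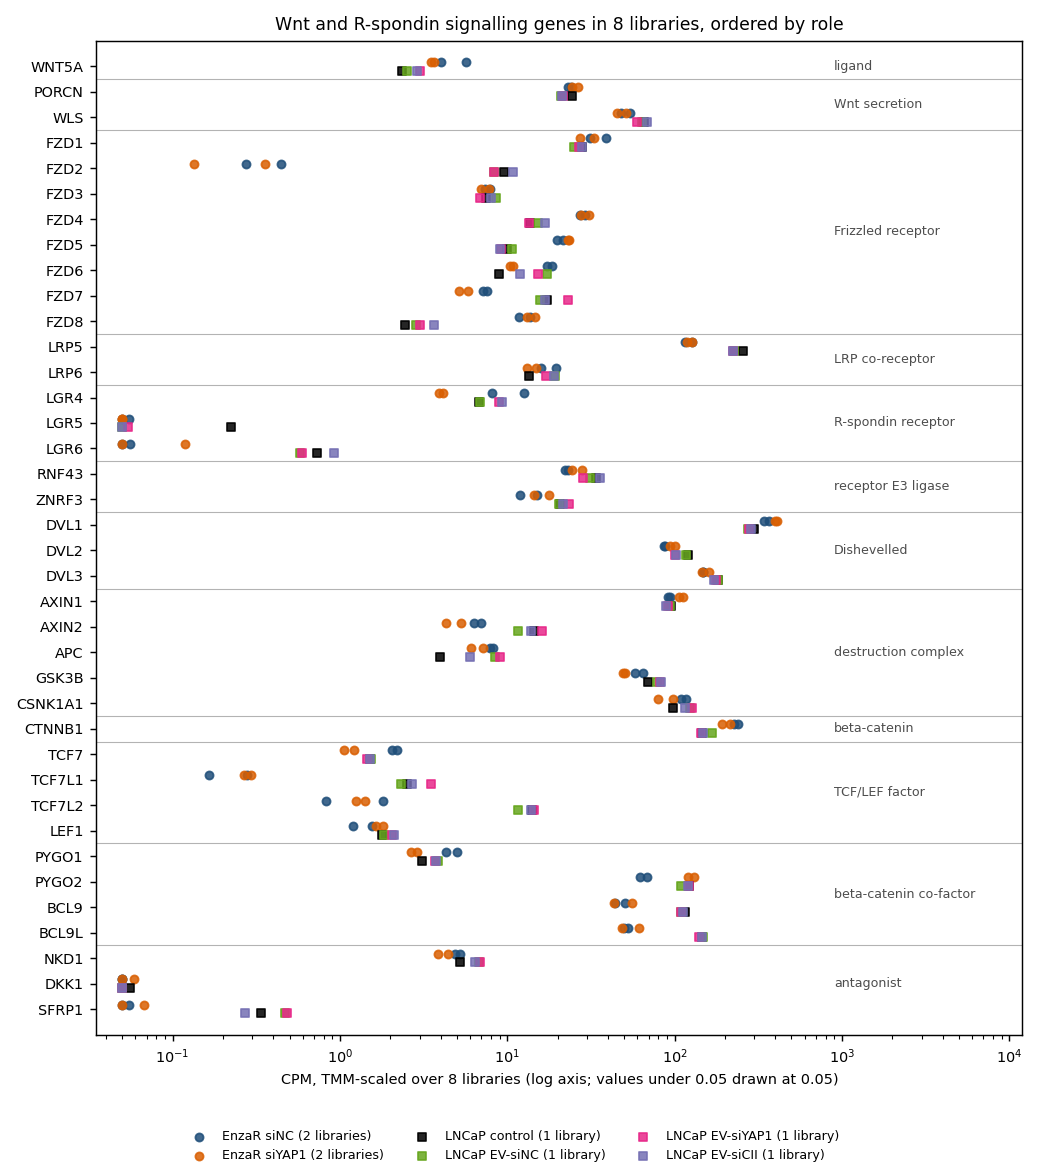
CPM (TMM-scaled, log axis) of the 38 members in each of the 8 libraries, grouped by role; circles are EnzaR and squares LNCaP libraries, and each point is 1 library. The EnzaR and LNCaP points lie apart for FZD2, FZD8, TCF7L1 and TCF7L2, and for PYGO2 the siYAP1 circles lie with the LNCaP squares, away from the siNC circles.

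siYAP1 was set against siNC in EnzaR cells, the contrast meant to find genes downstream of YAP1. PYGO2 rose, and LGR4, FZD6 and CSNK1A1 fell. These were 1 higher and 3 lower of 32 members tested. Over all 14948 genes tested, 5.83% were higher and 6.22% lower, so the members' share of calls was near the background in both directions. The median log2 fold change of the members was -0.0501, against -0.0253 for all genes tested. At an unadjusted p under 0.05 in edgeR, 1 member was higher and 10 were lower, against 1977 and 2362 of all genes tested. After correction for GC content and transcript length these counts were 1 and 5, against 1763 and 1185. Whether the members differ from other genes in this was not tested. FZD2, LGR5, LGR6, TCF7L1, DKK1 and SFRP1 had too few counts in EnzaR cells to be tested.

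PYGO2 is a PHD-finger protein that reads methylated histone H3 and is tethered to beta-catenin through BCL9. It lies on chromosome 1, 154929502 to 154936329 (ENSG00000163348, hg19). Its level was 68.3 and 62.4 CPM with siNC and 130 and 121 CPM with siYAP1. Both siYAP1 libraries were thus higher than both siNC libraries, and they reached the 109 to 122 CPM of the LNCaP libraries. The mean went from 65.3 ± 4.17 to 126 ± 6.59 CPM (SD, n = 2), which in log2 was a difference of 0.91 (SE 0.101, adjusted p = 3.7e-05 by the quasi-likelihood test of edgeR). Once GC content and transcript length were corrected for, the log2 fold change was 0.80 (edgeR adjusted p = 2.8e-05), and the call held in all 11 alternative fits. In 4 of these a replicate was left out, so that the spread came from the other group and the lone library was assumed to vary like it. The gene model overlaps SHC1 on the same strand, and SHC1 had a log2 fold change of -0.19 (edgeR adjusted p = 0.194). The paralog PYGO1 was lower on average: it was at 4.32 and 4.99 CPM in siNC and at 2.89 and 2.66 CPM in siYAP1 libraries. That difference, a log2 fold change of -0.77, missed the threshold (SE 0.26, edgeR adjusted p = 0.0556). BCL9 and BCL9L, the adaptors between beta-catenin and Pygopus, had log2 fold changes of 0.04 and 0.07 (edgeR adjusted p = 0.854 and 0.733), with SE 0.128 and 0.121.

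LGR4, the R-spondin receptor with most reads here, lies on chromosome 11, 27387508 to 27494322 (ENSG00000205213, hg19). LGR4 was at 12.6 and 8.15 CPM in siNC and at 3.90 and 4.13 CPM in siYAP1 libraries. The siNC libraries differed from each other more than the siYAP1 libraries did, but both lay above them. The siNC mean was 10.4 ± 3.13 CPM and the siYAP1 mean 4.02 ± 0.168 CPM (SD, n = 2), with a log2 fold change of -1.39 (SE 0.231, edgeR adjusted p = 0.00174). Without siYAP1 replicate 1 the log2 fold change was -1.36 and the call was lost (edgeR adjusted p = 0.109). After the GC and length correction it was -1.14 (edgeR adjusted p = 0.0058). The ligases that R-spondins hold back were not called. RNF43 was at 23.0 and 22.1 CPM in siNC and 24.4 and 28.0 CPM in siYAP1 libraries, and ZNRF3 at 11.9 and 15.0 and at 14.4 and 17.7 CPM. Both thus had higher means in siYAP1, with log2 fold changes of 0.19 and 0.23 (SE 0.134 and 0.17, edgeR adjusted p = 0.363 and 0.382).

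FZD6, a Frizzled receptor often linked to planar polarity and non-canonical signalling, lies on chromosome 8, 104310661 to 104345094 (ENSG00000164930, hg19). It was at 17.3 and 18.4 CPM in siNC and at 10.3 and 10.8 CPM in siYAP1 libraries. The groups did not overlap, and FZD6 fell from a mean of 17.8 ± 0.791 to one of 10.6 ± 0.325 CPM (SD, n = 2), by 0.78 on the log2 scale (SE 0.16, edgeR adjusted p = 0.00578). The call was lost without siYAP1 replicate 1 (log2 fold change -0.76, edgeR adjusted p = 0.134), and the log2 fold change was -0.53 after the GC and length correction (edgeR adjusted p = 0.0462). The other 6 Frizzled genes tested had log2 fold changes between -0.46 (FZD7) and 0.14 (FZD5) and were not called. FZD7 was at 7.60 and 7.20 CPM in siNC and at 5.17 and 5.79 CPM in siYAP1 libraries, without overlap (edgeR adjusted p = 0.147). Groups that do not overlap were common: in 28.3% of genes tested both siYAP1 libraries lay below both siNC libraries, and in 30.4% above. Of the co-receptors, LRP5 had a log2 fold change of -0.02 (SE 0.0986) and LRP6 of -0.37 (SE 0.162, edgeR adjusted p = 0.13).

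CSNK1A1 encodes CK1 alpha, the kinase that first phosphorylates beta-catenin, and lies on chromosome 5, 148871760 to 148931007 (ENSG00000113712, hg19). It was at 117 and 109 CPM in siNC and at 79.3 and 98.5 CPM in siYAP1 libraries. CSNK1A1 fell from a mean of 113 ± 5.82 to one of 88.9 ± 13.6 CPM (SD, n = 2), by 0.37 on the log2 scale (SE 0.11, edgeR adjusted p = 0.0334). This was the least firm of the 4 calls. It was absent after the GC and length correction (log2 fold change -0.05, edgeR adjusted p = 0.818), in DESeq2 (adjusted p = 0.0514), without siNC replicate 1 (-0.32, edgeR adjusted p = 0.145) and without siYAP1 replicate 1 (-0.23, edgeR adjusted p = 0.344). GSK3B, the second kinase of the complex, was at 64.7 and 57.9 CPM in siNC and at 49.1 and 50.4 CPM in siYAP1 libraries, with a log2 fold change of -0.33 that missed the threshold (edgeR adjusted p = 0.054) and was -0.04 after the GC and length correction. CTNNB1 itself was at 240 and 225 CPM in siNC and at 191 and 215 CPM in siYAP1 libraries (log2 fold change -0.22, SE 0.0967, edgeR adjusted p = 0.134), and 0.01 after the correction. Without the correction the log2 fold changes were 0.19 for the scaffold AXIN1, -0.31 for APC and 0.02 to 0.16 for the 3 Dishevelled genes, none of them called. With it these were 0.10 and 0.06, and -0.06 to 0.04.

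AXIN2, which is both a scaffold and a widely used transcriptional readout of beta-catenin, was at 6.94 and 6.32 CPM in siNC and at 5.31 and 4.31 CPM in siYAP1 libraries. Both siYAP1 values were lower, but the difference was not called (log2 fold change -0.50, SE 0.22, edgeR adjusted p = 0.14). NKD1, a feedback antagonist that binds Dishevelled, had -0.32 (SE 0.235, edgeR adjusted p = 0.383). TCF7, a TCF/LEF factor, went from 2.19 and 2.05 to 1.21 and 1.06 CPM and was not called either (log2 fold change -0.93, SE 0.377, edgeR adjusted p = 0.108). The TCF7 gene model overlaps that of SKP1 on the opposite strand, which had far more counts. Reads from the overlap cannot be told apart if strand was not used. RNF43 overlaps SUPT4H1 and DVL3 overlaps EIF2B5 on the same strand, and these neighbours had log2 fold changes of 0.13 and 0.03. WNT5A, PORCN, which acylates Wnt proteins, and WLS, which carries them to the surface, had log2 fold changes of -0.47, 0.09 and -0.10, and none was called. The plot of fold changes gives all 32 genes with both scales of correction.

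**Figure D2:**
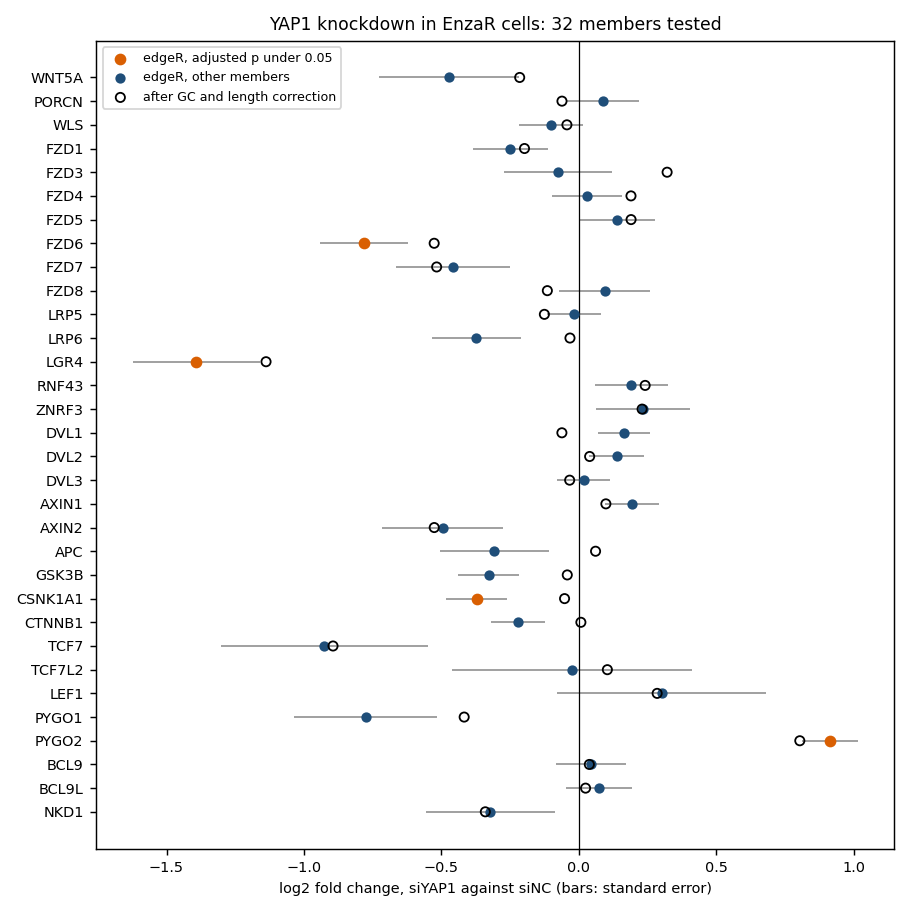
Log2 fold change of siYAP1 against siNC in EnzaR cells (2 libraries each) for the 32 members tested, with bars of 1 standard error; filled points are the edgeR values, orange where called, and open circles the values after correction for GC content and length. PYGO2, LGR4 and FZD6 stay away from 0 on both scales, while CSNK1A1, GSK3B and CTNNB1 move to near 0.

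The members' fold changes were related to GC content, the share of G and C in the longest transcript. For siYAP1 against siNC, Spearman's rho between log2 fold change and GC content was 0.485 across all genes tested. Across the 32 members it was 0.602, and Pearson's r was 0.527. These are descriptions across genes that share the same 4 libraries. CSNK1A1, FZD6, LGR4 and GSK3B had 39.4%, 38.4%, 42.1% and 42.1% GC, and PYGO2 had 56.6%. After the correction 3.0% of all genes were called higher and 1.56% lower, and the members called were PYGO2, higher, and LGR4 and FZD6, lower.

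Of 105 further Wnt pathway genes listed, 103 were found and 67 tested, and 2 were higher and 6 lower in siYAP1 libraries, with a median log2 fold change of -0.0486. This stands beside 5.83% higher, 6.22% lower and a median of -0.0253 over all genes tested. TLE3, a Groucho co-repressor of TCF factors, averaged 129 ± 0.338 CPM with siNC, 98.6 ± 8.8 CPM with siYAP1 (SD, n = 2) and fell by 0.42 on the log2 scale (SE 0.1, adjusted p = 0.0145 in edgeR). It was at -0.37 after the GC and length correction (edgeR adjusted p = 0.0144), the only one of the 8 still called there. WNT4 and GSK3A kept similar log2 fold changes of -1.48 and 0.30 but missed the threshold (edgeR adjusted p = 0.0563 and 0.0643). TBL1XR1, a co-regulator of beta-catenin, was called after the correction alone (0.49, edgeR adjusted p = 0.00599, and 0.12 without it). TLE5, a short member of that family, rose from 570 ± 16.4 to 727 ± 74.5 CPM, and GSK3A, the second GSK3 gene, from 66.4 ± 0.191 to 85.8 ± 3.33 CPM (SD, n = 2, edgeR adjusted p = 0.0399 and 0.0338). TNKS2, a tankyrase that marks Axin for degradation, USP34, a deubiquitinase of Axin, FBXW11, an E3 ligase subunit for beta-catenin, and DAAM1, a formin of planar polarity signalling, fell by 0.63, 0.65, 0.41 and 0.67 on the log2 scale. The ligand WNT4 fell from 1.75 and 1.66 to 0.538 and 0.768 CPM (log2 fold change -1.39, SE 0.443, edgeR adjusted p = 0.0452). None of the 4 R-spondins could be tested, since RSPO1, RSPO2 and RSPO3 were at 0 in all 8 libraries and RSPO4 at 0.111 to 0.354 CPM in EnzaR cells. Of 16 commonly named Wnt target genes 8 were tested in edgeR, and 0 had an adjusted p and 0 an unadjusted p under 0.05, while of all 14948 genes tested 872 were called higher and 930 lower and 4339 had an unadjusted p under 0.05. DESeq2, which fitted 12 of them, also gave 0 and 0. It left some genes without an adjusted p (WNT5A among the members), and such genes could not be called there. Genes listed under another role lie outside the target count. Among them AXIN2 (log2 fold change -0.50) and TCF7 (-0.93) had unadjusted p = 0.0356 and 0.0232 in edgeR, and NKD1 0.185. Of 4 further antagonists tested, NOTUM (0.67) and APCDD1 (1.05) had unadjusted p = 0.032 and 0.0069 in edgeR. None of these was called, and APCDD1 came nearest (edgeR adjusted p = 0.0538).

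FZD8 was the member with the largest ratio in favour of EnzaR, and FZD2, TCF7L2 and TCF7L1 were those with the largest in favour of LNCaP. EnzaR siNC libraries were set against the LNCaP control library, without a test since LNCaP has 1 control library. Of 34 members with a mean of 1 CPM, 4 were at least 2-fold higher (FZD4, FZD5, FZD8 and APC) and 8 at least 2-fold lower in EnzaR (FZD2, FZD7, LRP5, AXIN2, TCF7L1, TCF7L2, BCL9 and BCL9L). Among all 14256 genes 19.6% were 2-fold higher and 16.3% lower, so such differences were common between these libraries. All 4 EnzaR libraries lay above all 4 LNCaP libraries for 6 members and below for 13, against 35.7% and 31.7% of all genes.

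FZD2, a receptor for WNT5A among other ligands, had 2 to 8 counts in EnzaR and 154 to 200 counts in LNCaP libraries. Its level was 0.273 and 0.443 CPM in siNC, 0.134 and 0.354 CPM in siYAP1, and 9.56, 8.35, 8.28 and 10.8 CPM in control, EV-siNC, EV-siYAP1 and EV-siCII. The log2 ratio of siNC to control was -4.38 (95% counting interval -5.68 to -3.93). The ratio includes a prior count of 2 that pulls it towards 0 where counts are few, and the interval does not include it. FZD8 went the other way, at 13.6, 11.8, 13.0 and 14.6 CPM in siNC libraries 1 and 2 and siYAP1 libraries 1 and 2, and 2.46, 2.84, 3.01 and 3.63 CPM in the LNCaP libraries in the same order as above. Its log2 ratio was 2.31 (interval 1.92 to 2.85). FZD4 was at 27.1 to 30.8 CPM in EnzaR and 13.6 to 16.7 CPM in LNCaP, FZD5 at 19.8 to 23.3 and 9.04 to 10.7 CPM, and FZD7 at 5.17 to 7.60 and 15.8 to 23.2 CPM. For these 5 receptors no EnzaR library overlapped an LNCaP library. FZD4 overlaps PRSS23 on the opposite strand, which was itself lower in EnzaR, at 3.99 to 4.92 CPM against 13.2 to 21.98 CPM. Per length, FZD1 was the highest Frizzled transcript in EnzaR, at 5.56 to 9.08 FPKM. In LNCaP it was at 6.12 to 6.77 FPKM, which overlapped its EnzaR range and that of FZD7 in LNCaP. FZD8 and FZD4 were at 3.65 to 4.33 and 3.35 to 4.01 FPKM in EnzaR, and FZD7 and FZD2 at 4.34 to 6.39 and 4.43 to 5.75 FPKM in LNCaP. FZD6, at 2.27 to 4.48 FPKM in EnzaR and 2.22 to 4.53 FPKM in LNCaP, spanned much the same range in both lines and overlapped FZD8 and FZD4 in EnzaR.

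TCF7L2, the TCF factor best known from colon epithelium, was at 1.80 and 0.831 CPM in siNC, 1.41 and 1.24 CPM in siYAP1, and 14.04, 11.6, 14.4 and 13.8 CPM in the LNCaP libraries. EnzaR and LNCaP values did not overlap, and the log2 ratio of siNC to control was -3.40 (counting interval -3.89 to -2.96). TCF7L1, which acts mainly as a repressor, had 3 to 5 counts in EnzaR and 44 to 65 counts in LNCaP libraries, a log2 ratio of -3.002 (interval -4.81 to -2.42). LEF1 was at 1.20 to 1.81 CPM in EnzaR and 1.79 to 2.11 CPM in LNCaP, and TCF7 at 1.06 to 2.19 and 1.45 to 1.52 CPM, with overlap for both. No TCF/LEF gene exceeded 0.36 FPKM in an EnzaR library, whereas TCF7L2 was at 2.43 to 3.01 FPKM in LNCaP. BCL9 was at 43.2 to 55.8 CPM in EnzaR and 109 to 116 CPM in LNCaP, BCL9L at 48.5 to 61.4 and 140 to 147 CPM, and LRP5 at 116 to 127 and 223 to 255 CPM. AXIN2 was at 4.31 to 6.94 CPM in EnzaR and 11.7 to 16.0 CPM in LNCaP (log2 ratio of siNC to control -1.10, interval -1.38 to -0.86). CTNNB1, at 191 to 240 CPM in EnzaR and 143 to 168 CPM in LNCaP, was higher in every EnzaR library, by 0.67 in the log2 ratio of siNC to control. After the GC and length correction that ratio was 0.23.

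Between the lines, too, the log2 ratio followed GC content, with a Spearman rho of -0.456 across all genes and -0.459 across the 34 members. After the GC and length correction the log2 ratios were -3.76 for FZD2, -3.69 for TCF7L2, -2.41 for TCF7L1, 2.999 for FZD8, 1.28 for FZD5, 0.95 for FZD4 and -0.9995 for FZD7, the last 2 just inside 2-fold, while DVL1 (1.09) and TCF7 (1.05) then lay past it. Those of BCL9, BCL9L, AXIN2 and LRP5 were then -0.90, -0.61, -0.78 and -0.31, also inside. APC passed 2-fold in siNC against the control library alone (log2 ratio 1.00, and 0.59 after the correction): it was at 7.93 and 8.20 CPM in siNC, 6.05 and 7.21 CPM in siYAP1, 3.97 CPM in control, and 8.41, 9.04 and 6.01 CPM in the 3 libraries given vesicles, so the lines overlapped.

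In LNCaP cells, EV-siNC was set against control to see the effect of vesicles from resistant cells on sensitive ones. APC and FZD6 were at least 1.5-fold higher in EV-siNC, and no member was 1.5-fold lower, of 28 members with a mean of 5 CPM. Of all 10589 genes 3.33% were 1.5-fold higher and 0.434% lower, and between the 2 siNC libraries of EnzaR cells 1.33% passed 1.5-fold in either direction. Over all genes the log2 ratios had an SD of 0.265 here, 0.208 between the siNC libraries and 0.22 between the siYAP1 libraries. For siYAP1 library 2 against library 1 the members' median log2 ratio was 0.155, against -0.00789 over all genes. With 1 library per group there is no replicate check, no test was made, and intervals cover counting error only.

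APC, the scaffold that holds beta-catenin in the destruction complex, was at 3.97 CPM in control and 8.41 CPM in EV-siNC, from 71 and 160 counts (log2 ratio 1.06, interval 0.67 to 1.51). FZD6 was at 8.89 CPM in control and 17.4 CPM in EV-siNC (log2 ratio 0.96, interval 0.69 to 1.25). The LNCaP control library was the lowest of the 4 LNCaP libraries for both genes. It was the lowest for 7 and the highest for 7 of the 28 members, against 33.2% and 36.7% of all genes. LRP6, the second co-receptor, was at 13.5 CPM in control and 19.4, 17.1 and 19.0 CPM with the 3 kinds of vesicles (log2 ratio for EV-siNC 0.51, interval 0.28 to 0.76). All 3 are transcripts of low GC content, with 39.6%, 38.4% and 40.2%. Spearman's rho between log2 ratio and GC content was -0.643 across the 28 members and -0.553 across all genes. Corrected for GC content and length, the ratios were 0.71 for APC, 0.66 for FZD6 and 0.19 for LRP6, so the first 2 stayed past 1.5-fold. At the low end AXIN2 was at 14.4 CPM in control and 11.7 CPM in EV-siNC (-0.30, interval -0.57 to -0.04), TCF7L2 at 14.04 and 11.6 CPM (-0.28, interval -0.55 to -0.01) and PORCN at 24.3 and 21.0 CPM (-0.21, interval -0.41 to -0.01). CTNNB1 was at 146 CPM in control and 168 CPM in EV-siNC, a log2 ratio of 0.20 that was 0 to 2 decimals after the correction.

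**Figure D3:**
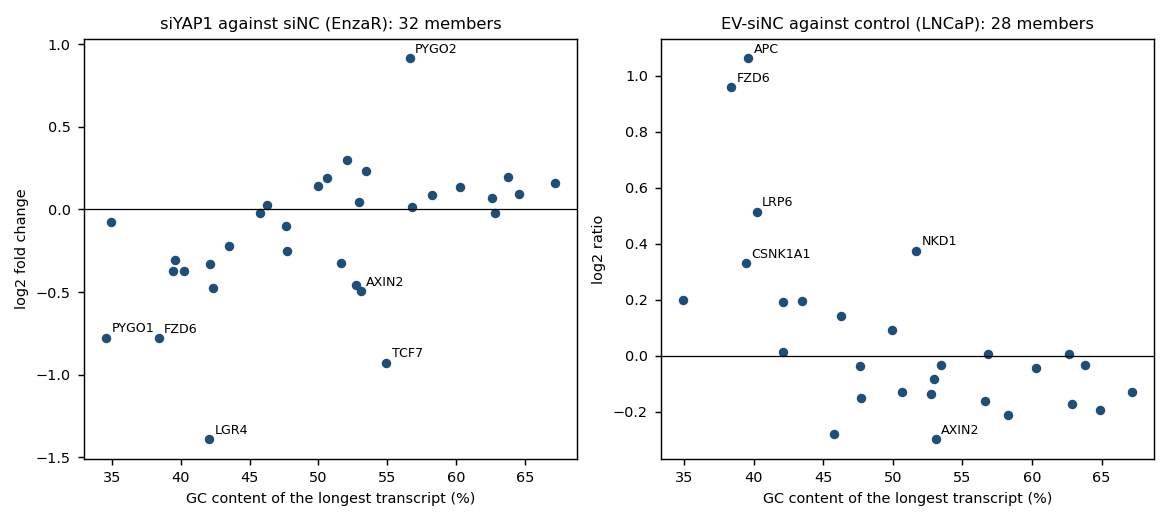
Log2 fold change of siYAP1 against siNC (left, 32 members) and log2 ratio of EV-siNC to control (right, 28 members) against the GC content of the longest transcript, 1 point per gene, with the 6 largest values named. The points slope up on the left (Spearman rho 0.602) and down on the right (-0.643), and PYGO2 and LGR4 lie furthest above and below the rest on the left.

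The other LNCaP comparisons asked what YAP1 or COUP-TFII in the donor cells adds. In both, 0 of 28 members passed 1.5-fold in either direction, beside 1.16% of all genes for EV-siYAP1 and 0.852% for EV-siCII. Both use the EV-siNC library that was also set against control, so their ratios are given side by side and not compared. FZD7 was at 15.8 CPM in EV-siNC, 23.2 CPM in EV-siYAP1 and 16.8 CPM in EV-siCII, and at 17.3 CPM in control. The EV-siYAP1 library was the high one, with a log2 ratio of 0.56 (interval 0.34 to 0.78), and 0.58 after the GC and length correction. AXIN2 was at 11.7, 16.0 and 13.9 CPM in EV-siNC, EV-siYAP1 and EV-siCII (log2 ratios 0.45, interval 0.20 to 0.72, and 0.25, interval -0.01 to 0.52), beside 14.4 CPM in control. LGR4 was at 6.88 CPM in EV-siNC and at 8.98 and 9.31 CPM in EV-siYAP1 and EV-siCII (0.38, interval 0.05 to 0.73, and 0.43, interval 0.10 to 0.78), beside 6.82 CPM in control. For AXIN2 the EV-siNC library was thus the low one of 4, and for LGR4 control and EV-siNC lay together. Between the 2 siNC libraries of EnzaR cells LGR4 differed by 0.62 on the log2 scale, more than either of these ratios.

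In EV-siCII, FZD6 was at 11.9 CPM against 17.4 CPM in EV-siNC (log2 ratio -0.55, interval -0.81 to -0.30) and APC at 6.01 against 8.41 CPM (-0.48, interval -0.85 to -0.13). Both values lay between those of control and EV-siNC. FZD2 was at 10.8 against 8.35 CPM (0.37, interval 0.07 to 0.68), TCF7L2 at 13.8 against 11.6 CPM (0.25, interval -0.01 to 0.52) and FZD5 at 9.04 against 10.7 CPM (-0.24, interval -0.54 to 0.06). The lowest ratios in EV-siYAP1 were those of FZD3, at 6.83 against 8.62 CPM (-0.33, interval -0.68 to 0.01), CTNNB1, at 143 against 168 CPM (-0.23, interval -0.31 to -0.16), and FZD5, at 9.14 against 10.7 CPM (-0.22, interval -0.52 to 0.08). In that library FZD6 was at 15.3 CPM (-0.19, interval -0.42 to 0.05) and APC at 9.04 CPM (0.10, interval -0.22 to 0.43). PYGO2 was at 122, 109, 121 and 120 CPM in control, EV-siNC, EV-siYAP1 and EV-siCII, with the EV-siNC library the lowest. The median log2 ratio of the 28 members was -0.00356 in EV-siYAP1 and 0.0327 in EV-siCII, against 0.0065 and 0.00304 over all genes.

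**Figure D4:**
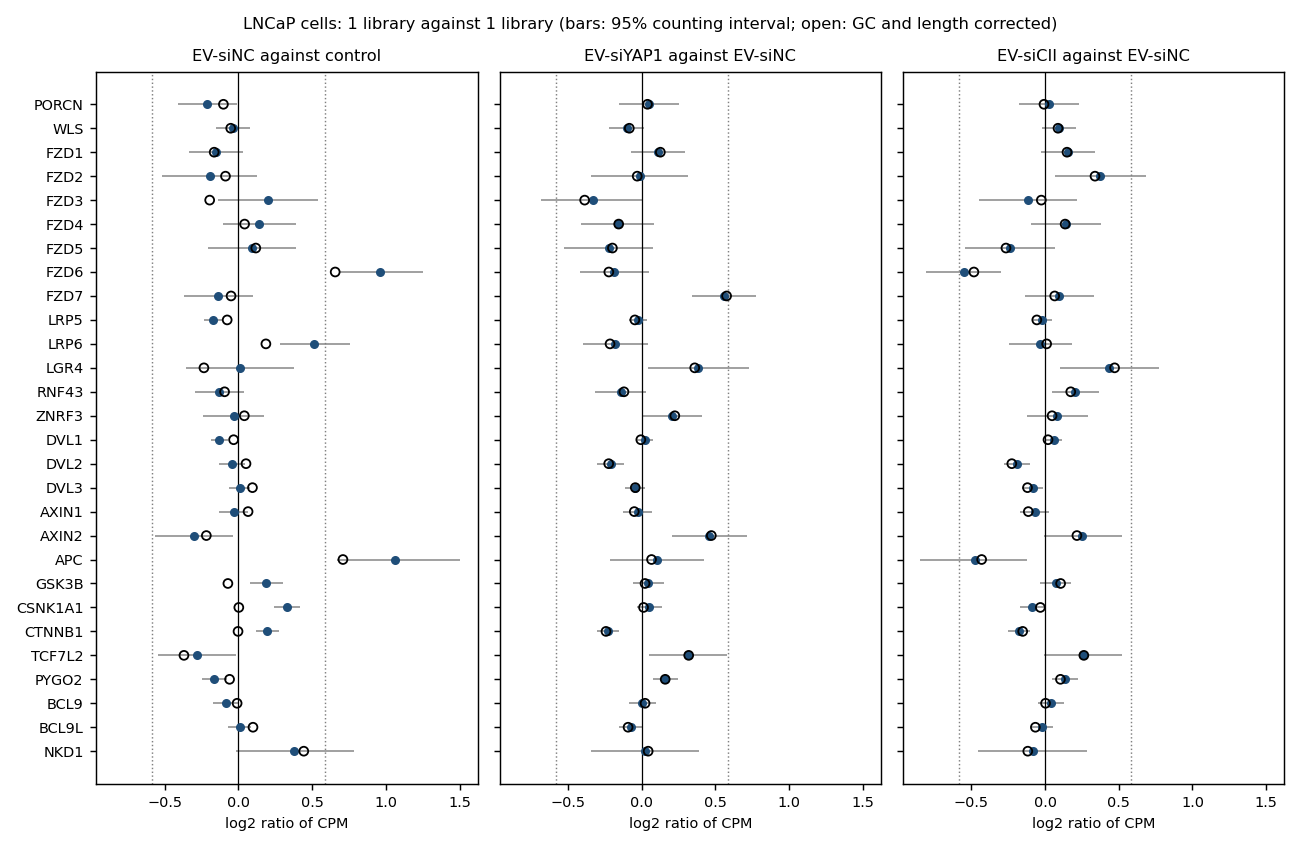
Log2 ratios of CPM for the 28 members over the floor of 5 CPM in 3 LNCaP comparisons of 1 library with 1 library; bars are 95% counting intervals, open circles the values after GC and length correction, and dotted lines mark 1.5-fold. APC and FZD6 lie past the line in EV-siNC against control, and no point passes it in the other panels.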

How the data were processed

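The 8 libraries were grouped by their labels. The deposited table gave raw read counts per Ensembl gene and FPKM, with hg19 coordinates. Per the submitters' processing notes, the tools were HTSeq 0.6.1, HISAT2 2.0.1, cutadapt 1.9.1 plus DESeq2, and the builds named are GRCh37 and hg19, with no roles stated. Strand setting and annotation release: not given in the sources used here. The authors' FPKM equalled count over exonic length and column total for 463240 of 463240 values within 0.0051. Symbols were matched by Ensembl identifier.

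siYAP1 was tested against siNC by a robust quasi-likelihood fit in edgeR 4.0.16 (R 4.3.3) after filterByExpr and TMM, without covariates. Adjustment was by Benjamini-Hochberg over all genes, with a threshold of 0.05. LNCaP and line comparisons are log2 ratios of TMM-scaled CPM with a prior count of 2 and a floor of 5 CPM (lines: 1 CPM) on the mean of both groups. Their exact binomial intervals come from the counts without the prior, so a ratio from few counts is not centred in its interval. The GC and length correction is a smooth surface per library (mgcv 1.9.3), with GC content from GENCODE transcripts by identifier for 97.3% of genes tested. For members called or past the fold, values were given for the libraries compared or as a range per line. They were also given for the 3 largest ratios per direction in each LNCaP comparison. Further Wnt genes were named if called, and some others after their values were seen. Members and lists were chosen with earlier results of these data known. Alternatives were DESeq2 1.42.0, other scalings, filters and floors, a fit of all 8 libraries, leaving out each replicate, and the replicate number as a block.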

Additional observations from a re-analysis of the deposited data

How the results depend on the processing

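Members called lower in siYAP1 were 3 with all libraries, 6 with library totals only (GSK3B, CTNNB1 and PYGO1 were added) and 0 to 3 with a replicate left out, 0 without siYAP1 replicate 1. Scaling by library totals moved the median log2 fold change of all genes by -0.104. The CTNNB1 log2 fold change, not called, was -0.22 and turned to 0.00708 under the GC and length correction. Over all genes, 872 were higher and 930 lower with TMM (48.4% higher), 291 and 1416 with library totals only (17%), 449 and 233 after the GC and length correction (65.8%), and 889 and 453 in DESeq2. With a replicate left out, 15 to 940 were higher and 11 to 829 lower, the lowest without siYAP1 replicate 1 (15 and 11, with 2434 of 15683 genes at an unadjusted p under 0.05). Replicate numbers did not pair the libraries (correlation of deviations -0.0798), and a replicate block gave 564 higher and 845 lower, with the same 4 members called (PYGO2, LGR4, FZD6 and CSNK1A1). Of members at least 2-fold lower in EnzaR, 8 were counted without and 3 with the GC and length correction. Members 1.5-fold higher in EV-siNC were 2, and 1 with a floor of 10 CPM, which leaves out APC. No cause beyond these constructions was tested. With 2 or 1 libraries per group, differences of members near 2 CPM or below were not detectable unless large. In siYAP1 against siNC the SE of the log2 fold change was 0.377 for TCF7 and 0.381 for LEF1.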

Other observations

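Components beyond the listed genes differed between the lines as well. These were chosen after their values were seen, and with 1 LNCaP control library no test was made. TLE3, the Groucho co-repressor, was at 92.3 to 129 CPM in the EnzaR libraries and 456 to 553 CPM in the LNCaP libraries. WNT4 was at 0.538 to 1.75 CPM in EnzaR and 5.20 to 8.44 CPM in LNCaP. RSPO4, the one R-spondin with reads, was at 0.111 to 0.354 CPM in EnzaR and 1.79 to 2.31 CPM in LNCaP, and PRICKLE2, a planar polarity gene, at 0 to 0.177 and 1.58 to 3.19 CPM. Others went the other way. The receptor ROR2 was at 20.6 to 24.8 CPM in EnzaR and 8.67 to 11.3 CPM in LNCaP. VANGL1, a planar polarity gene, was at 51.2 to 60.7 and 23.1 to 26.9 CPM. How many further genes went each way was not counted. These ranges did not overlap between lines, as was the case for 31.7% of all genes with EnzaR lower and 35.7% with EnzaR higher.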
